A study of Mus musculus with 4 samples.

Results

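The 70 genes described here belong to families of glycosyltransferases that build the glycans of glycoproteins and glycolipids. They were chosen by gene symbol alone, from the Galnt, Galntl, Gcnt, B3gnt, B3galt, B4galt, Fut, St3gal, St6gal, St6galnac and St8sia families, out of 18193 named genes on the array. Gene expression was read on 1 Affymetrix array for each of 4 fractions of mouse embryonic fibroblasts (MEFs, a mixed primary population of connective tissue cells) under reprogramming, in which transcription factors turn body cells into pluripotent ones. Cells had been fixed, permeabilized, stained and sorted for the reprogramming factors Oct4 and Klf4 and the epithelial surface protein EpCAM. The fractions were Oct4+Klf4+EpCAM+, Oct4+Klf4+EpCAM-, Oct4+Klf4- and Oct4-. The labels give neither the factors introduced, their delivery, the day of sorting nor whether the Oct4- cells shared a culture with the others, and they give no Klf4 or EpCAM gate for Oct4- cells and no EpCAM gate for Oct4+Klf4- cells. With 1 array per fraction, no test was possible and every difference below lacks a replicate check.

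Glycans are assembled one sugar at a time, each by an enzyme that recognizes the sugar added before. Polypeptide GalNAc-transferases (Galnt) start mucin-type chains on serine or threonine, Gcnt enzymes branch them, B3gnt and galactosyltransferases lengthen them, and fucosyl- and sialyltransferases cap them. The caps form epitopes such as SSEA-1, a fucosylated structure used to follow mouse pluripotent cells, and polysialic acid, a polymer on neural and migrating cells.

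Levels are log2 values of a probe set. Where several probe sets read a gene, the one brightest on average across the arrays stood for it, and levels of different genes are not compared, since each probe set has its own brightness. A gene counted as measured from a floor of 4.53, which is the median value of the data, and 38 of the 70 glycosyltransferase genes reached it on at least 1 array (54.3%, against 62.8% of all named genes). A call of higher or lower needed a difference of at least 2-fold, 1 on the log2 scale, with the brighter of both levels at or above the floor. For folds alone, dimmer levels at or below 2.94 were set to that value, and the fold is then written as "at least". That value is the highest reading of 27 bacterial control probe sets without a matching transcript. Calls and log2 differences used the levels as read. Array medians lay between 4.49 and 4.55. The transcripts of the sorted proteins followed the gates by their brightest probe sets: Pou5f1, which encodes Oct4, had 11.70, 11.66 and 11.48 in the Oct4-positive arrays and 7.59 in the Oct4- array, in the order of fractions above. Epcam was 7.91-fold higher in Oct4+Klf4+EpCAM+ than in Oct4+Klf4+EpCAM-. Klf4 was 15.6-fold higher in Oct4+Klf4+EpCAM- than in Oct4+Klf4-, while its other probe set had 2.67 in Oct4+Klf4+EpCAM- and 5.69 in Oct4+Klf4-. Of 17 fibroblast markers, 13, 14, 15 and 15 reached the floor in the same order of fractions, so this count does not set the Oct4- array apart. In such bulk samples, fewer cells of a type and less RNA per cell cannot be told apart.

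Of the 70 genes, 17 were called in at least 1 of 4 comparisons (24.3%, against 17.7% of all named genes), 21 reached the floor and were never called, and 32 did not reach the floor. Sialyltransferases held 8 of the 17, with 20 genes on the array, and polypeptide GalNAc-transferases 1, with 18. The levels of the 17 are drawn by fraction in the heat map, and the plot of differences shows all 70.

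In Oct4+Klf4- against Oct4-, 3 of 70 glycosyltransferase genes were higher and 1 lower (5.71% called, against 5.29% of all genes). In Oct4+Klf4+EpCAM- against Oct4+Klf4-, 4 were higher and 4 lower (11.4%, against 9.62%). Those shares lay near the background. In Oct4+Klf4+EpCAM+ against Oct4+Klf4+EpCAM-, 2 were higher and 2 lower (5.71%, against 3.07%). Between the ends, Oct4+Klf4+EpCAM+ against Oct4-, 10 were higher and 6 lower (22.9%, against 14.2%), and this comparison is the sum of the 3 gates. Neighbouring gates share an array. By direction, all genes were called higher and lower in 2.25% and 3.04% at the Oct4 gate, 5.30% and 4.32% at Klf4, 1.95% and 1.12% at EpCAM, and 7.46% and 6.77% between the ends.

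**Figure D1:**
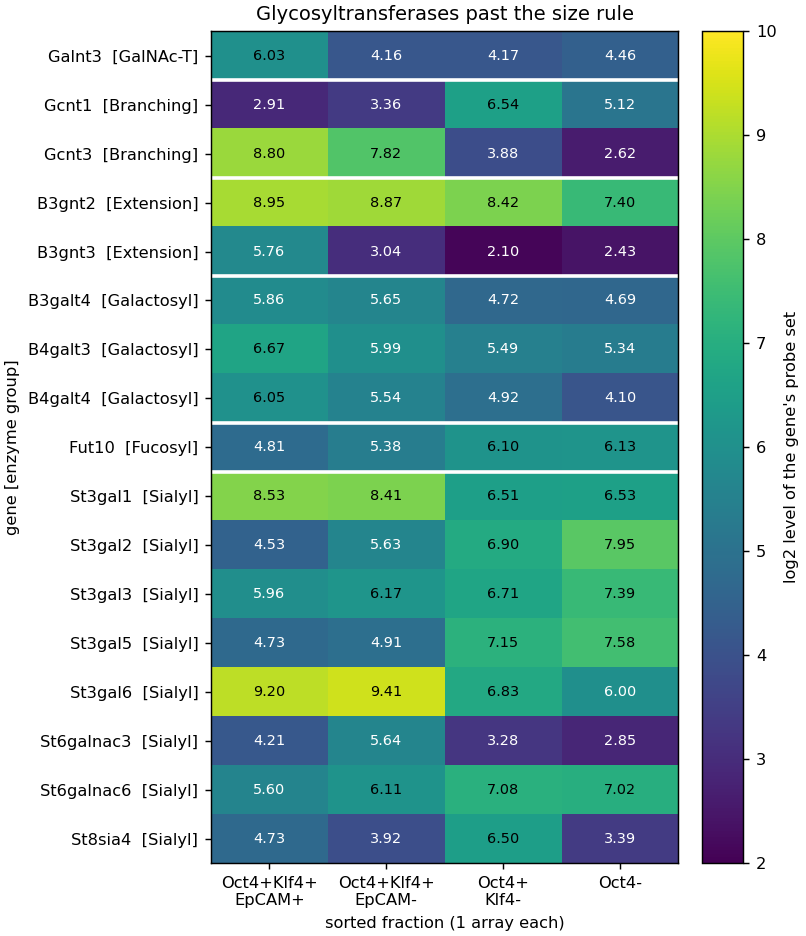
Log2 level (colour and printed number) of the 17 glycosyltransferase genes called in at least 1 comparison, with genes in rows by enzyme group and the 4 sorted fractions in columns, 1 array each. Gcnt3 is bright in both Klf4-positive fractions (8.80 and 7.82) and dim in Oct4+Klf4- (3.88) and Oct4- (2.62), and St3gal2 is dimmest in Oct4+Klf4+EpCAM+ (4.53) and brightest in Oct4- (7.95).

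**Figure D2:**
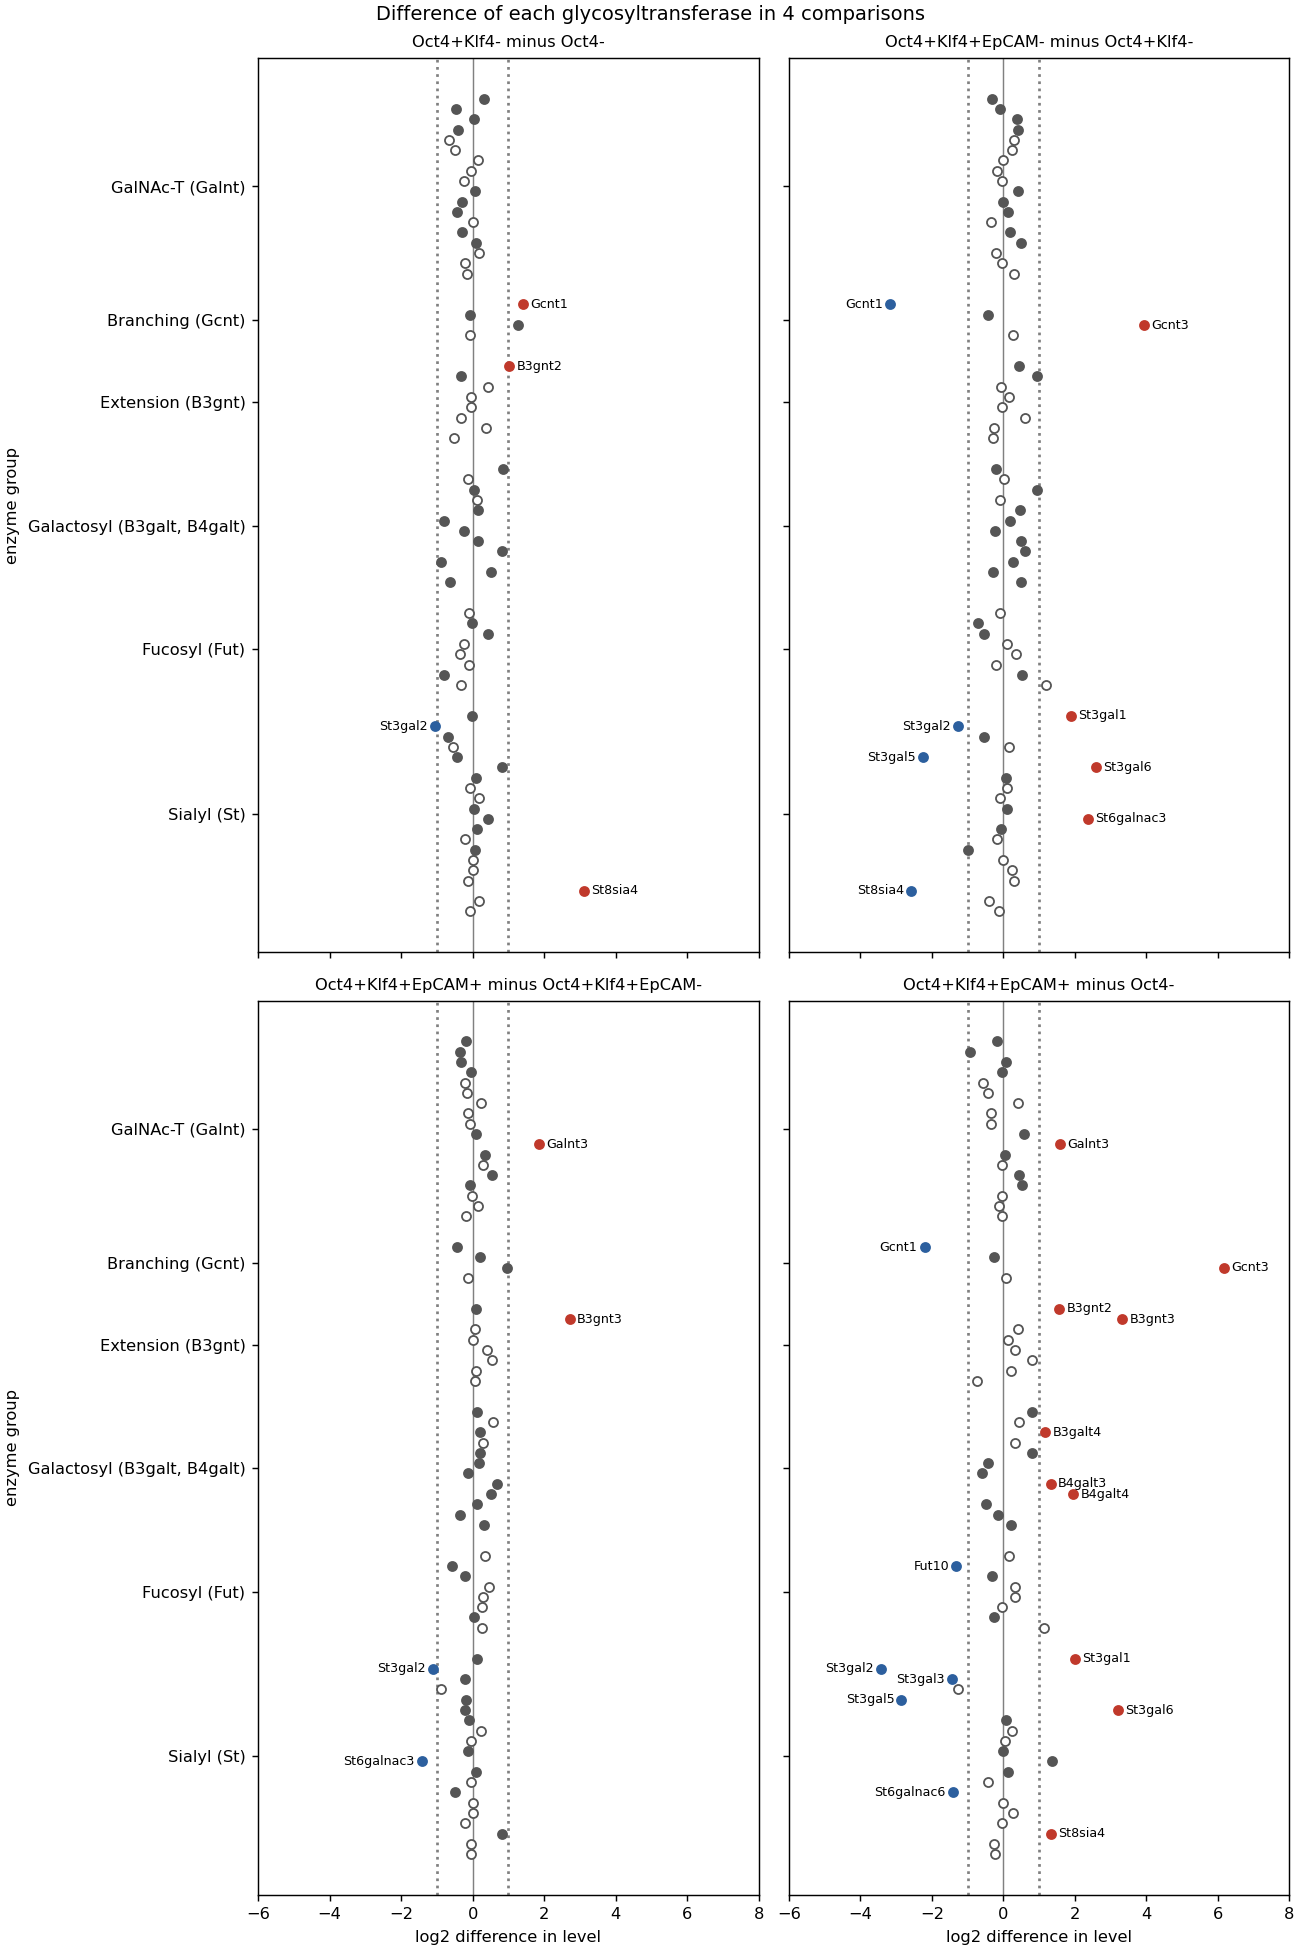
Log2 difference in level (horizontal axis) of each of the 70 genes, by enzyme group (vertical axis), in 4 comparisons with 1 panel each. Filled points reach the floor on any array and open points do not, red and blue points are called higher and lower, and dotted lines mark a 2-fold difference. At the Klf4 gate 4 genes are called on each side, among them Gcnt3 at 3.94 and Gcnt1 at -3.18.

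The enzymes that branch mucin-type chains held the largest difference of the 70 genes. Gcnt3, a branching enzyme of mucus-secreting epithelia that makes core 2 and other branches, had levels of 8.80 in Oct4+Klf4+EpCAM+, 7.82 in Oct4+Klf4+EpCAM-, 3.88 in Oct4+Klf4- and 2.62 in Oct4-. It was bright in both Klf4-positive fractions and below the floor in the other two. Gcnt3 was 15.3-fold higher in Oct4+Klf4+EpCAM- than in Oct4+Klf4-, and at least 57.8-fold higher in Oct4+Klf4+EpCAM+ than in Oct4-. Its 3 probe sets were all called higher in both of these comparisons. Averaged, their log2 difference between the ends was 5.24, against 6.17 for the probe set used. Between the Klf4-positive fractions it lay just inside 2-fold, with a log2 difference of 0.97, while both other probe sets were called higher there, at 1.08 and 1.02.

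Gcnt1, the core 2 enzyme best known from leukocytes, ran the other way at the Klf4 gate. Its levels were 2.91 in Oct4+Klf4+EpCAM+, 3.36 in Oct4+Klf4+EpCAM-, 6.54 in Oct4+Klf4- and 5.12 in Oct4-. Only the Klf4-negative and Oct4- arrays reached the floor, with the highest level in Oct4+Klf4-. Gcnt1 was 2.68-fold higher in Oct4+Klf4- than in Oct4- and 9.05-fold lower in Oct4+Klf4+EpCAM- than in Oct4+Klf4-. At the Klf4 gate its log2 difference was -3.18 as called and -2.22 with its 2 probe sets averaged. Between the ends it was at least 4.51-fold lower in Oct4+Klf4+EpCAM+, a call that was lost when its 2 probe sets were averaged, because their mean in Oct4- was below the floor. Its other probe set did not reach the floor.

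Gcnt2, which makes the branches of the I blood group antigen, is known to give several transcripts from alternative first exons, and its 8 probe sets differed. The brightest by mean had 4.44 in Oct4+Klf4+EpCAM+, 4.23 in Oct4+Klf4+EpCAM-, 4.65 in Oct4+Klf4- and 4.71 in Oct4-, with no call. Another had 3.61, 3.53 and 3.54 in the Oct4-positive fractions in the same order and 6.28 in Oct4-, a log2 difference of -2.74 between Oct4+Klf4- and Oct4-. A further one had a log2 difference of -1.62 there. Every probe set of Gcnt2 had its highest level in the Oct4- array, and which transcript each one reads is not annotated in the sources used here. Gcnt7 did not reach the floor.

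**Figure D3:**
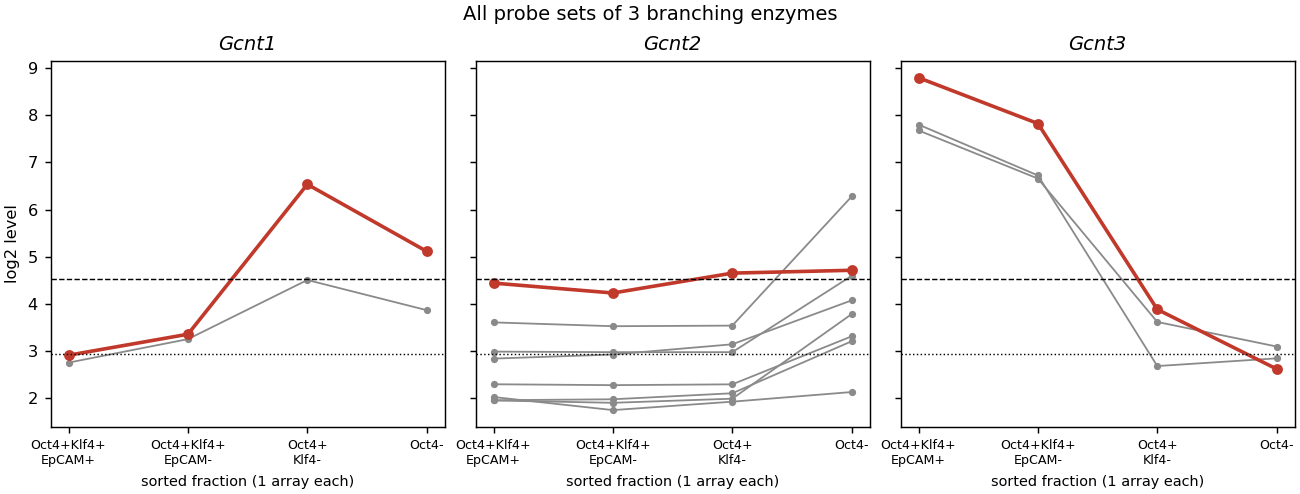
Log2 level (vertical axis) of every probe set of Gcnt1, Gcnt2 and Gcnt3 in the 4 sorted fractions (horizontal axis, 1 array each). The red line is the probe set with the highest mean, grey lines are the others, the dashed line is the floor of 4.53 and the dotted line the background level of 2.94. The 3 Gcnt3 lines drop together at the Klf4 gate, and 1 Gcnt2 line stands at 6.28 in Oct4- and below 4 elsewhere.

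The GalNAc-transferases that start the chains differed little. Of 18 genes, 9 reached the floor, and 6 of the other 9 read no brighter than bacterial controls on any array. Galnt3, an enzyme of epithelia that also glycosylates the hormone FGF23, had 6.03 in Oct4+Klf4+EpCAM+, 4.16 in Oct4+Klf4+EpCAM-, 4.17 in Oct4+Klf4- and 4.46 in Oct4-. It reached the floor in the EpCAM-positive fraction alone, 3.66-fold higher than in Oct4+Klf4+EpCAM-. That difference was 0.84 on the log2 scale when its 3 probe sets were averaged, below 2-fold; of the other 2, one read 2.04 on every array. The broadly expressed Galnt1, Galnt2 and Galnt7 each stayed within a range of 0.59 on the log2 scale. Galnt10 had the largest difference among the uncalled members of the group, -0.93 between Oct4+Klf4+EpCAM+ and Oct4-, and a second probe set of Galnt10 passed 2-fold there.

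Among the chain-extending enzymes, 2 of 8 reached the floor and both were called. B3gnt3, which lengthens core 1 chains and takes part in making ligands of L-selectin, had 5.76 in Oct4+Klf4+EpCAM+, 3.04 in Oct4+Klf4+EpCAM-, 2.10 in Oct4+Klf4- and 2.43 in Oct4-. It too reached the floor in the EpCAM-positive fraction alone, 6.59-fold above Oct4+Klf4+EpCAM-, and is read by 1 probe set. B3gnt2, the main enzyme of polylactosamine chains, had 8.95 in Oct4+Klf4+EpCAM+, 8.87 in Oct4+Klf4+EpCAM-, 8.42 in Oct4+Klf4- and 7.40 in Oct4-. By this probe set its difference was largest at the Oct4 gate (2.03-fold higher in Oct4+Klf4- than in Oct4-, just past the size rule). Between the ends it was 2.94-fold higher. The other probe set of B3gnt2 had log2 differences of 0.98 at the Oct4 gate and 0.86 at Klf4, neither called. That probe set was also called higher between the ends. The 6 others, including the core 3 enzyme B3gnt6 and the glycolipid enzyme B3gnt5, stayed below the floor.

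The stretches upstream of B3gnt3 and Galnt3 are shown because both genes were called higher at the EpCAM gate. RefSeq promoter windows (GRCm38.p6) matched 51 of the 70 genes and 13 of the 17 called, and the 250 bases before a start are printed, 5′ to 3′ on the gene's strand. Capitals mark CACCC, the core of sites bound by Klf factors, and GGGCGG, that of sites bound by Sp factors, each read on both strands, and the 2 motifs may share bases. B3gnt3 lies on the minus strand at chr8:71701801-71702050 and Galnt3 on the minus strand at chr2:66124794-66125043.
B3gnt3: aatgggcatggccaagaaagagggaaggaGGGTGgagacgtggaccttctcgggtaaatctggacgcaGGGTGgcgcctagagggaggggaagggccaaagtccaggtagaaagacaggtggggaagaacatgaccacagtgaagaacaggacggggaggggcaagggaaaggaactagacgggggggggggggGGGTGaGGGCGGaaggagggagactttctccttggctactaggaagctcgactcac
Galnt3: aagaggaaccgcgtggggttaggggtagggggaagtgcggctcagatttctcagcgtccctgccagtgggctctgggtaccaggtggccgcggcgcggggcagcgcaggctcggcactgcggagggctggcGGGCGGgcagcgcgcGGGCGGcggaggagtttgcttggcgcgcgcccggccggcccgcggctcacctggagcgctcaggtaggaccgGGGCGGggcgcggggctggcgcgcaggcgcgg
The window of B3gnt3 held 3 CACCC and 1 GGGCGG, and that of Galnt3 held 0 and 3, at a GC content of 60.0% and 76.8%. Over all 32851 windows of this length read here, 52.0% held CACCC and 32.7% GGGCGG. Of the 70 windows that belong to the 51 matched genes, 68.6% held CACCC and 48.6% GGGCGG. A match is a description of these letters and not a bound site.

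By the probe sets used, Galnt3 and B3gnt3 were called higher at the EpCAM gate and not at Klf4, and Gcnt3 the reverse. This contrast depends on the cut-offs for Gcnt3 and B3gnt3. Gcnt3 had a log2 difference of 0.97 at EpCAM, and its other probe sets were called higher there. B3gnt3 had 0.93 at Klf4, with both levels below the floor, so no call was possible. Many epithelial and keratinocyte markers were higher at both gates. Of 15 on the array, 11 were called higher and 0 lower in Oct4+Klf4+EpCAM+ against Oct4+Klf4+EpCAM-, and 9 higher and 0 lower in Oct4+Klf4+EpCAM- against Oct4+Klf4-. Of all genes, 1.95% were called higher at EpCAM and 5.30% at Klf4. The log2 of their summed level was 13.28 in Oct4+Klf4+EpCAM+, 11.78 in Oct4+Klf4+EpCAM-, 9.04 in Oct4+Klf4- and 10.02 in Oct4-. Trp63, a regulator that defines keratinocytes, did not reach the floor, and the basal keratin Krt5 stayed between 4.62 and 4.93. The part of such cells in these differences was not tested.

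Galactosyltransferases were mostly above the floor (10 of 12), and none was called at any single gate. Between the ends 3 were called, all higher in Oct4+Klf4+EpCAM+. B4galt4 had 6.05 in Oct4+Klf4+EpCAM+, 5.54 in Oct4+Klf4+EpCAM-, 4.92 in Oct4+Klf4- and 4.10 in Oct4-, which is 3.89-fold higher between the ends in steps of 0.52 to 0.83. B4galt3 was 2.50-fold higher and B3galt4, which makes the ganglioside GM1, was 2.26-fold higher. These 3 stood a little higher at each gate in turn, as did B3galt6, which with B4galt7 builds the linker of proteoglycans. Some steps were very small: at the Oct4 gate, 0.03 for B3galt4, 0.14 for B4galt3 and 0.15 for B3galt6. Those were below the median SD of 0.17 between probe sets of a gene at that gate. The main lactosamine enzyme B4galt1 and the lactosylceramide synthase B4galt5 had log2 differences of -0.79 and -0.88 between Oct4+Klf4- and Oct4-, short of 2-fold, and -0.44 and -0.49 between the ends. At the Oct4 gate B4galt6 went the other way from B4galt5, with a log2 difference of 0.51 and no call. B3galt2 and B3galt5, which make type 1 chains, did not reach the floor. Their family member B3galt1 lay above the floor on every array, between 4.76 and 5.61, with no call.

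Of 8 fucosyltransferase genes, 3 reached the floor. Fut8, which adds the core fucose of N-glycans, had 7.10 in Oct4+Klf4+EpCAM+, 7.05 in Oct4+Klf4+EpCAM-, 6.54 in Oct4+Klf4- and 7.35 in Oct4-, with no call. Fut11 also had no call. Fut10, a less well characterized relative, had 4.81 in Oct4+Klf4+EpCAM+, 5.38 in Oct4+Klf4+EpCAM-, 6.10 in Oct4+Klf4- and 6.13 in Oct4-. It was lowest in the EpCAM-positive fraction and 2.49-fold lower between the ends, the only call of the group, with both other probe sets in the same direction.

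Fut9, the main enzyme of SSEA-1 in the mouse embryo, stayed below the floor. Its brightest probe set had 3.25 in Oct4+Klf4+EpCAM+, 2.98 in Oct4+Klf4+EpCAM-, 1.79 in Oct4+Klf4- and 2.11 in Oct4-. The other 2 probe sets had 3.31 and 3.10 in Oct4+Klf4+EpCAM+ and 2.23 and 1.82 in Oct4-. All 3 were highest in the EpCAM-positive fraction and lowest in Oct4+Klf4-, at levels close to those of the bacterial controls, and no call is made from them. Fut4 and Fut7, which make related fucosylated epitopes of leukocytes, and Fut1 and Fut2, which make the H antigen, had highest levels of 3.94, 4.40, 3.13 and 3.68.

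Sialyltransferases, the group with the most calls, had 11 of 20 genes at the floor and a median range over the arrays of 2.02 on the log2 scale, against 0.62 for all genes at the floor. The St3gal enzymes, which add sialic acid to galactose, split by member. St3gal6, which caps lactosamine chains of glycoproteins and glycolipids, had 9.20 in Oct4+Klf4+EpCAM+, 9.41 in Oct4+Klf4+EpCAM-, 6.83 in Oct4+Klf4- and 5.996 in Oct4-. St3gal1, which caps core 1 of mucin-type chains, had 8.53 in Oct4+Klf4+EpCAM+, 8.41 in Oct4+Klf4+EpCAM-, 6.51 in Oct4+Klf4- and 6.53 in Oct4-. Both were brighter in the 2 Klf4-positive fractions than in the others, by 5.99-fold (St3gal6) and 3.73-fold (St3gal1) in Oct4+Klf4+EpCAM- against Oct4+Klf4-. Each of their other probe sets at the floor was called the same way. With all 5 probe sets of St3gal6 averaged, 2 of them below the floor, its log2 difference at that gate was 1.33, against 2.58 as called.

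For St3gal6, the sialyltransferase furthest above 2-fold at the Klf4 gate, the 250 bases before its 2 RefSeq starts are shown with the same capitals and build, both on the minus strand, at chr16:58524254-58524503 and chr16:58523427-58523676.
St3gal6 start 1: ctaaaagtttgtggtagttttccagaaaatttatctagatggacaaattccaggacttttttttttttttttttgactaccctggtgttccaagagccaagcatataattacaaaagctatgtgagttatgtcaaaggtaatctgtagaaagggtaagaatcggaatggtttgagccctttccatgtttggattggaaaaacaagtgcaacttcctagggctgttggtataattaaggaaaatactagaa
St3gal6 start 2: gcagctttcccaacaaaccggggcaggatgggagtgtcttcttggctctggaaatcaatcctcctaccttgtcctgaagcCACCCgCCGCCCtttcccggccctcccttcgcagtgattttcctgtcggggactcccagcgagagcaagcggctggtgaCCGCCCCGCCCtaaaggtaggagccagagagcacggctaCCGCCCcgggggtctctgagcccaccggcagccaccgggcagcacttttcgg
The first start held neither motif at a GC content of 34.8%. The second held 1 CACCC and 4 copies of GGGCGG at 64.4%.

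The other measured St3gal genes were lower toward the EpCAM-positive end. St3gal2, which acts mainly on glycolipids and mucin-type chains, had 4.53 in Oct4+Klf4+EpCAM+, 5.63 in Oct4+Klf4+EpCAM-, 6.90 in Oct4+Klf4- and 7.95 in Oct4-. It is the only one of the 70 genes called at each of the 3 gates, always lower, by 2.15-fold at EpCAM, 2.40-fold at Klf4 and 2.08-fold at Oct4, and it was 10.7-fold lower between the ends. Its 3 probe sets went the same way throughout, but their mean passed 2-fold between the ends alone, where the log2 difference was -3.42 as called and -2.22 averaged. St3gal5, the synthase of ganglioside GM3, had 4.73 in Oct4+Klf4+EpCAM+, 4.91 in Oct4+Klf4+EpCAM-, 7.15 in Oct4+Klf4- and 7.58 in Oct4-. By this probe set St3gal5 was 4.72-fold lower in Oct4+Klf4+EpCAM- than in Oct4+Klf4-, a log2 difference of -2.24, against -1.45 with both probe sets averaged. The other probe set had no call at a single gate, with log2 differences of -0.67 at Klf4 and -0.81 at EpCAM. St3gal3, which sialylates lactosamine, was 2.70-fold lower in Oct4+Klf4+EpCAM+ than in Oct4-, a call that averaging its 2 probe sets ended at a log2 difference of -0.96. St3gal4 did not reach the floor.

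Fibroblast markers moved with these lower genes and with Fut10. Of 17 on the array, 14 were called lower and 1 higher in Oct4+Klf4+EpCAM+ against Oct4-, and 10 lower and 3 higher in Oct4+Klf4+EpCAM- against Oct4+Klf4-. Of all genes, 6.77% were lower and 7.46% higher between the ends, and 4.32% lower and 5.30% higher at Klf4. The log2 of their summed level was 12.22 in Oct4+Klf4+EpCAM+, 13.01 in Oct4+Klf4+EpCAM-, 13.70 in Oct4+Klf4- and 14.34 in Oct4-. The defining markers Pdgfra and Fap stayed below the floor on all 4 arrays. Pluripotency markers, 12 on the array with 5 at the floor, moved with St3gal1, St3gal6 and Gcnt3 at the Klf4 gate, where 3 were called higher and 0 lower; Nanog, which defines pluripotent cells, read no higher than 2.67. Some markers of other cell types were higher at that gate too. Of 8 endothelial markers, 3 were called higher and 0 lower (Tek by 3.32-fold, Flt1 by 5.79-fold and Cldn5 by 9.28-fold). The endothelial Kdr, Emcn and Vwf read no brighter than bacterial controls on any array. Of 5 erythroid markers, 2 at the floor, Hbb-y was the only call, at least 64.4-fold higher. Neural markers went both ways, with 4 of 12 called higher and 4 lower. Stmn2, Tubb3 and Sox1 were 18.9-fold, 19.8-fold and 16.5-fold higher, and Nefm and Nefl 28.6-fold and 7.62-fold lower. The part of any of these cell types in the differences was not tested.

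**Figure D4:**
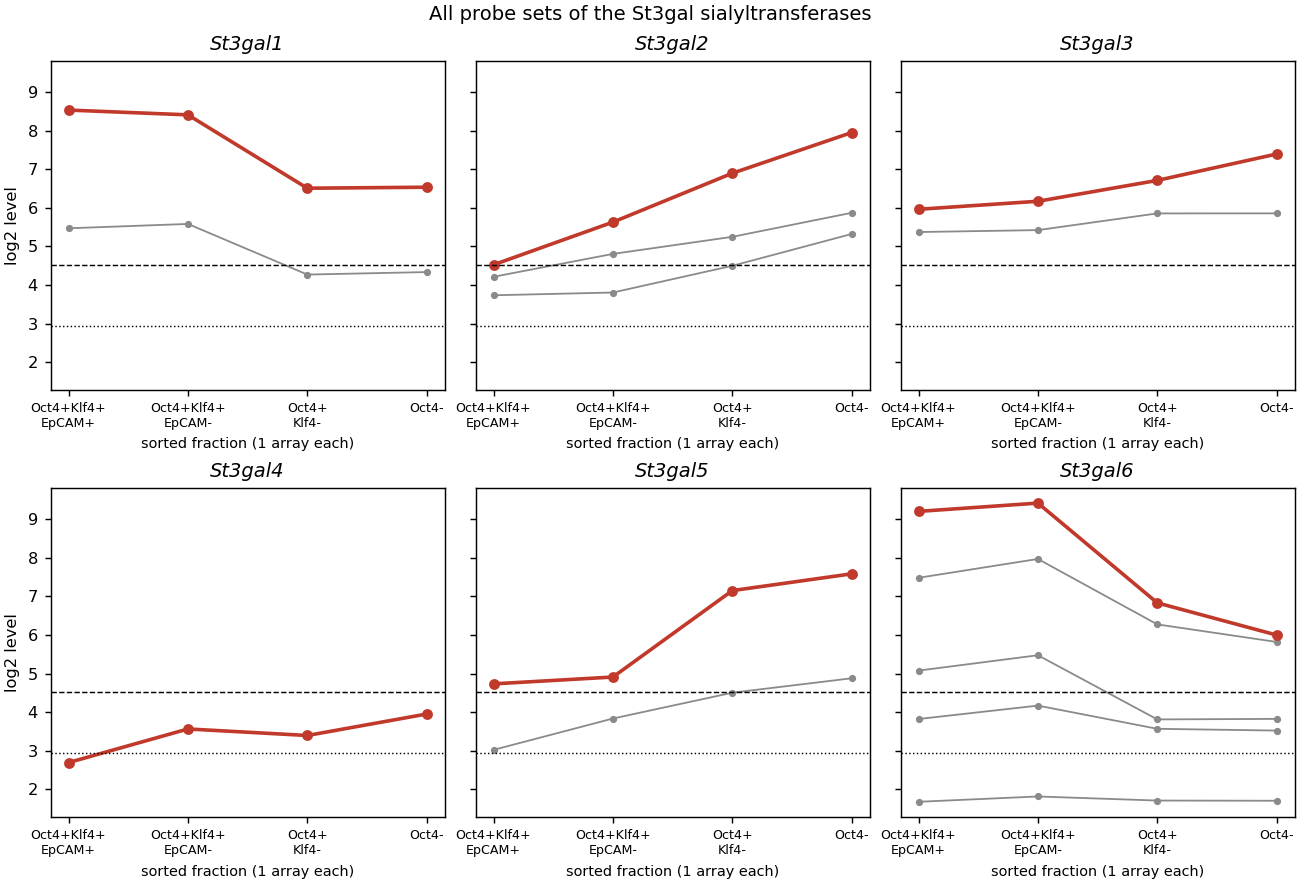
Log2 level (vertical axis) of every probe set of St3gal1 to St3gal6 in the 4 sorted fractions (horizontal axis, 1 array each). The red line is the probe set with the highest mean, grey lines are the others, the dashed line is the floor of 4.53 and the dotted line the background level of 2.94. St3gal1 and St3gal6 are high in the Klf4-positive fractions, while St3gal2, St3gal3 and St3gal5 are highest in Oct4-.

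St8sia4, which builds polysialic acid, stood out in Oct4+Klf4-. Its levels were 4.73 in Oct4+Klf4+EpCAM+, 3.92 in Oct4+Klf4+EpCAM-, 6.50 in Oct4+Klf4- and 3.39 in Oct4-. St8sia4 was 8.62-fold higher in Oct4+Klf4- than in Oct4- and 5.97-fold lower in Oct4+Klf4+EpCAM- than in Oct4+Klf4-, and its second probe set was called in both comparisons. At the Oct4 gate its log2 difference was 3.11 as called and 2.40 with both probe sets averaged. Its 2.53-fold difference between the ends was 0.88 on the log2 scale with both probe sets averaged, short of 2-fold. The other polysialic acid enzyme, St8sia2, read no higher than 2.98. Neural markers moved with St8sia4 at the Oct4 gate: of 12 on the array, 8 were called higher and 1 lower in Oct4+Klf4- against Oct4-. Of all genes, 2.25% were called higher and 3.04% lower there. The log2 of their summed level was 12.08 in Oct4+Klf4+EpCAM+, 12.17 in Oct4+Klf4+EpCAM-, 11.87 in Oct4+Klf4- and 10.004 in Oct4-. At the Klf4 gate, 4 of the 12 were called higher and 4 lower in Oct4+Klf4+EpCAM- against Oct4+Klf4-. The 4 lower ones, Nefm by 28.6-fold, Nefl by 7.62-fold, Gap43 by 6.73-fold and Map2 by 3.82-fold, were highest in Oct4+Klf4-, as St8sia4 was. The defining neural markers Pax6 and Gfap did not reach the floor. As for RNA integrity, probe sets at the 3' and 5' ends of Gapdh differed by 1.303 on the log2 scale (3' minus 5') in Oct4+Klf4- and by 0.97 to 1.04 in the other arrays. For Actb the same value was -0.0515 in Oct4+Klf4- and between -0.0652 and -0.0565 in the others. The part of either in the St8sia4 result was not tested.

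In the St6galnac family, which sialylates GalNAc of mucin-type chains and gangliosides, St6galnac3 peaked in Oct4+Klf4+EpCAM-. It had 4.21 in Oct4+Klf4+EpCAM+, 5.64 in Oct4+Klf4+EpCAM-, 3.28 in Oct4+Klf4- and 2.85 in Oct4-. St6galnac3 was 5.13-fold higher in Oct4+Klf4+EpCAM- than in Oct4+Klf4- and 2.68-fold lower in Oct4+Klf4+EpCAM+ than in Oct4+Klf4+EpCAM-. Neither call held when its 3 probe sets were averaged, at log2 differences of 0.97 and -0.54, and the other 2 did not reach the floor. St6galnac6, an enzyme of gangliosides with 1 probe set, had 5.60 in Oct4+Klf4+EpCAM+, 6.11 in Oct4+Klf4+EpCAM-, 7.08 in Oct4+Klf4- and 7.02 in Oct4-, which is 2.66-fold lower between the ends. By contrast St6galnac2 stayed between 8.53 and 8.67, St6galnac4 between 7.73 and 7.87, and St6gal1, which caps N-glycans, within 0.18 on the log2 scale. In the RefSeq gene order of GRCm38.p6, St6galnac6 and St6galnac4 are neighbours with no coding gene between them. St6gal2, St6galnac1, St6galnac5, St8sia1, St8sia3, St8sia5 and St8sia6 did not reach the floor.

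By their medians, the enzymes as a set leaned little to either side. By calls between the ends, 14.3% were higher and 8.57% lower, against 7.46% and 6.77% of all genes. The median log2 difference of the enzymes, over the 38 at the floor, was 0.03 at the Oct4 gate, 0.16 at Klf4, 0.06 at EpCAM and 0.07 between the ends. Over the 11428 genes at the floor it was 0.02, 0.04, -0.0008 and 0.07. Between the ends the median size of a difference without its sign was 0.80 for the glycosyltransferases and 0.43 for all genes, and 1.41 for the sialyltransferases. Of the 17 genes with a range of at least 2-fold, 10 had their largest step at the Klf4 gate (58.8%, against 59.9% of all such genes). At every gate in turn 7 of the 38 were higher, with Gcnt3 and B4galt4 farthest, and 6 were lower, with St3gal2 and St3gal5 farthest. This count goes by sign alone and includes steps as small as 0.03 for B3galt4 and -0.03 for Fut10 at the Oct4 gate. The shares, 18.4% and 15.8%, compare with 14.3% and 10.9% of all genes at the floor.

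Genes that supply these enzymes or act beside them were read from pathway lists. The shares of all genes called at each gate, given above, are the background for these short lists too. The core 1 synthase and its chaperone, both at the floor, had no call. None of 5 sialic acid supply genes was called. Of 5 fucose supply genes, the Golgi transporter Slc35c1 was 2.45-fold higher and Gmds, which makes GDP-fucose, 2.51-fold lower in Oct4+Klf4+EpCAM- than in Oct4+Klf4-. Among 10 genes of hexosamine and galactose supply, 1 was called at any gate, the nucleotide sugar transporter Slc35d2, 2.39-fold higher at Klf4.

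Of 13 N-glycan processing genes, Mgat4a, a branching enzyme, had 7.99 in Oct4+Klf4+EpCAM+, 8.05 in Oct4+Klf4+EpCAM-, 5.47 in Oct4+Klf4- and 4.17 in Oct4-. It was bright in both Klf4-positive fractions, 6.01-fold higher at that gate and 14.1-fold higher between the ends, while its paralogue Mgat4b was 2.50-fold lower between the ends. Trimming enzymes Man1a and Man2a2 were 3.92-fold and 3.32-fold lower between the ends, where 2 of the list were higher and 3 lower. In the list of 7 O-fucose and O-GlcNAc genes, the fringe enzymes extend O-fucose on Notch. Mfng was 2.05-fold higher at the EpCAM gate and had no call at Klf4, and Rfng was 2.05-fold higher at the Klf4 gate and had no call at EpCAM. Pofut1, which adds that fucose, was 2.02-fold lower at Klf4, and Lfng 2.12-fold higher. Of 9 glycan removal genes, the fucosidase Fuca1 was 2.23-fold lower between the ends, the only call.

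Among proteins that carry mucin-type chains, 3 of 16 were higher and 1 lower at the Klf4 gate (all genes 5.30% and 4.32%). Podxl, a sialomucin of pluripotent cells, had 9.28 in Oct4+Klf4+EpCAM+, 9.27 in Oct4+Klf4+EpCAM-, 5.92 in Oct4+Klf4- and 5.78 in Oct4-, 10.2-fold higher at Klf4. Spn, the leukocyte sialomucin leukosialin, had 8.16 in Oct4+Klf4+EpCAM+, 8.66 in Oct4+Klf4+EpCAM-, 4.18 in Oct4+Klf4- and 4.13 in Oct4-, 22.3-fold higher there. Both were bright in the Klf4-positive fractions. Pdpn, also called higher at Klf4, had 8.21 in Oct4+Klf4+EpCAM-, 6.46 in Oct4+Klf4- and 8.03 in Oct4-, so it was lowest in Oct4+Klf4-. Leukocyte markers beside Spn were higher at that gate in 2 of 9 (Cd14 and Laptm5), while Ptprc did not exceed 3.64 and Adgre1, Itgam and Cd3e read no brighter than bacterial controls on any array. The part of leukocytes in the Spn difference was not tested. Cd34 was at least 6.99-fold lower in Oct4+Klf4- than in Oct4-. Of 6 mucin genes on that list, 5 stayed below the floor. Of 12 lectins that bind glycans, 4 were higher and 0 lower at Klf4, among them Lgals7, a galectin of stratified epithelia, by 4.92-fold, and Lgals3 by 3.09-fold. Lgals3 was brightest in Oct4- (9.95) and 3.97-fold lower in Oct4+Klf4- than there. Between the ends 2 lectins were higher and 1 lower, Lgals1 by 3.36-fold.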

How the data were processed

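RNA of 4 sorted fractions of reprogramming MEFs, 1 array each, was isolated from fixed, stained cells, amplified with a whole-transcriptome kit and biotinylated, per the labels' protocols; amplification from fixed cells can change levels by transcript integrity. The authors deposited log2 levels for 45101 probe sets, made with RMA per the submitters' processing notes, which name no version. Genes were named through the platform annotation (34945 probe sets with 1 symbol, 932 with several and 9160 with none, besides 64 controls), giving 18193 genes.

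With Python 3.11.15, pandas 2.3.3 and numpy 2.4.6, log2 differences were taken for 3 neighbouring gates and the ends. No test was possible with 1 array a group, so precision is limited by the number of arrays. Simulated data served to test the calling of differences. All genes of the chosen families could be named, and from each pathway list up to 4 called genes with the largest range over the arrays. The genes, lists and rules were chosen with earlier results of these data known. Alternatives varied the probe set, floor, fold and scaling.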

Additional observations from a re-analysis of the deposited data

How the results depend on the processing

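No paired analysis was possible because each fraction has 1 array. Under the alternatives, 26 of 36 counts of called genes stayed within 1.5 times the reported one. With a floor of 6.87, the 75th percentile, 2 genes were called in Oct4+Klf4- against Oct4- (4 as reported), 5 in Oct4+Klf4+EpCAM- against Oct4+Klf4- (8), 0 in Oct4+Klf4+EpCAM+ against Oct4+Klf4+EpCAM- (4) and 8 in Oct4+Klf4+EpCAM+ against Oct4- (16). At 1.5-fold, 12 were called in Oct4+Klf4- against Oct4- (all genes 11.3%) and 7 in Oct4+Klf4+EpCAM+ against Oct4+Klf4+EpCAM- (all genes 7.17%). At 3-fold, 1, 2 and 8 were called in Oct4+Klf4- against Oct4- (all genes 2.64%), in Oct4+Klf4+EpCAM+ against Oct4+Klf4+EpCAM- (1.24%) and in Oct4+Klf4+EpCAM+ against Oct4- (8.15%). With all probe sets of a gene averaged, 2 were called in Oct4+Klf4+EpCAM+ against Oct4+Klf4+EpCAM-, of which 1 was also called as reported. Fewer genes are eligible under a higher floor or fold by construction. The share of all genes called under the higher floor or with averaging is not given here. Those counts therefore cannot show whether the fall is particular to the glycosyltransferases. The median log2 difference moved beyond the scatter between probe sets of a gene (median SD 0.12 to 0.18) in 2 of 24 cases, both with the higher floor: -0.14 in Oct4+Klf4+EpCAM+ against Oct4+Klf4+EpCAM- and -0.14 in Oct4+Klf4+EpCAM+ against Oct4-. The 32 calls were recomputed under several of these settings, which gave 128 differences, of which 118 kept their call and 0 changed sign. The 10 that lost it were all among the 32 with probe sets averaged, where a gene with 1 probe set could not change. A further 32 came from preferring probe sets whose names lack the suffix a, s or x. That kept the same probe set for every called gene, so no call could change. Rescaling acted on arrays whose medians already lay between 4.49 and 4.55, which left little room for change. The 118 therefore come mostly from settings that could alter little. Of the 10, Gcnt1 between the ends kept a difference of -1.66 and lost its call by the floor. Calling a gene by any of its probe sets, an alternative chosen after seeing the data, added Gcnt2 at the Oct4 gate, Gcnt3 at EpCAM, and Galnt7, Galnt10 and Gcnt2 between the ends. Signal near the background limits the 32 genes below the floor, Fut9 among them.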

Other observations

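The brightest probe set of St8sia1, the GD3 synthase, was listed at 2.95 on every array. Of 45101 probe sets, 22 had 1 value on all 4 arrays, 2 of them among the 151 probe sets of the glycosyltransferase genes, and none of the 22 was above 4.07. Such values carry no information on a difference between fractions.

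Among the 32 calls of glycosyltransferase genes over the 4 comparisons, 19 had a further probe set of the gene at the floor. In all 19 every such probe set went the same way, in 12 at least 1 of them was called too, and in 7 none was. The other 13 calls rest on 1 probe set at the floor, those of B3gnt3, Galnt3, Gcnt1, B3galt4, B4galt3, B4galt4, St6galnac3 and St6galnac6.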
